A study of Mus musculus with 4 samples.

Results

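The genes described here are 8 genes that take part in keeping lymphocytes in the gut or in letting them leave it: the integrin chains Itgae, Itga1, Itga4, Itgb7 and Itgb1, the receptors S1pr1 and Gpr183, and the transcription factor Klf2. The rule names the genes and sets no limit on a measured value, although earlier results of these data were known when they were chosen. They were found by gene identifier in both gene expression libraries, as 8 of the 31950 identifiers that the libraries share. All 8 had UMIs in both genotypes. Their levels were read in barcodes of T cell and innate lymphoid clusters, which were 5373 of 14722 cells in the wild-type (WT) library and 22588 of 43288 cells in the A20ZF7 library.

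Lymphocytes enter the small intestinal lamina propria across venules with the integrin α4β7, which pairs Itga4 with Itgb7 and binds MAdCAM-1. In the tissue they can hold on to E-cadherin through αEβ7 (Itgae with Itgb7, also called CD103) and to collagen IV through α1β1 (Itga1 with Itgb1), both of which mark tissue-resident T cells. Exit runs through S1pr1, the receptor for sphingosine 1-phosphate in lymph and blood, whose gene is switched on by Klf2, while Gpr183 draws cells toward oxysterols made by stromal cells and is known for placing ILC3s in gut lymphoid tissue.

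The study compared 12-week-old WT mice with mice of the same age carrying a knock-in of A20 (Tnfaip3) that abolishes the binding of linear ubiquitin by its zinc finger 7, here called A20ZF7. Lamina propria cells of the small intestine from 2 mice per genotype were marked with hashtag antibodies, pooled, depleted of other cells to enrich T cells and innate lymphoid cells (ILCs), and run as 1 single-cell 5′ library per genotype. With 1 library per genotype there was no test between genotypes, no p-value was computed, and genotype and library cannot be told apart. The only measure of spread between animals was that of the 2 WT mice, told apart by hashtag 7 (mouse 1, 1733 lymphocyte barcodes) and hashtag 8 (mouse 2, 2161 barcodes), with 1479 WT lymphocyte barcodes left without a call.

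The libraries held 35289432 UMIs (WT) and 54587004 UMIs (A20ZF7), and the lymphocyte barcodes had a median of 876 and 708.5 UMIs. Levels are given in CPM, the UMIs of a gene per 1000000 UMIs of a summed group of barcodes, with 95% exact intervals that cover counting error only. Fibroblast, smooth muscle, endothelial and plasma clusters remained after this depletion, and an estimate from immunoglobulin UMIs put the free RNA share of lymphocyte UMIs at 7.37% in WT and 20.9% in A20ZF7, so levels in fibroblast clusters stand beside low values as background. The 2 gene lists differed (1746 identifiers were listed for WT alone, 335 for A20ZF7 alone, and 1905 shared ones carried different symbols), so the libraries may have been counted against different gene models, and the part of this in any genotype difference was not tested. The filtered libraries shared 914 cell barcodes.

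Surface protein was read with 138 antibodies, of which 4 bind products of these genes. The tag of each antibody is the sequence by which its UMIs were counted, and the tags are shown because the readout of the integrin proteins rests on telling them apart. Each has 15 bases, all in capitals because the whole tag is read, and any pair of the 5 tags differs at 8 or more bases. CD69 is added as a surface marker of retained cells.
CD103 (Itgae): TTCATTAGCCCGCTG
CD49a (Itga1): CCATTCATTTGTGGC
CD49d (Itga4): CGCTTGGACGCTTAA
integrin7 (Itgb7): TCCTTGGATGTACCG
CD69: TTGTATTCCGCCATT

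Summed over all T and innate lymphocytes, Itga1 was the gene with the largest genotype difference among the 8, and it was lower in A20ZF7. Its level was 105 CPM in the WT library, 126 in WT mouse 1, 116 in WT mouse 2 and 34.3 in A20ZF7, a ratio of A20ZF7 to WT of 0.327 (0.292 to 0.365). Both mice and the WT library as a whole were above A20ZF7 by far more than they differed from each other. The 1479 WT barcodes without a hashtag call were lower, at 57.8 (45.7 to 72.1), though still above A20ZF7. Itga4 went the other way, from 242 in WT (261 in mouse 1 and 261 in mouse 2) to 414 in A20ZF7, a ratio of 1.71 (1.62 to 1.81). Itgae was at 58.8 in WT, 64.5 in mouse 1, 75.4 in mouse 2 and 83.3 in A20ZF7. The ratio was 1.42 (1.26 to 1.60), or 1.10 against mouse 2 alone. WT barcodes without a hashtag call had Itgae at 21.5 (14.4 to 30.9), so the WT library lay below both mice. S1pr1 was at 19.1 in WT, 18.7 in mouse 1, 21.4 in mouse 2 and 30.6 in A20ZF7, a ratio of 1.60 (1.30 to 1.98).

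The other members differed less. Klf2 was at 224 in WT, 206 in mouse 1, 244 in mouse 2 and 249 in A20ZF7, so that mouse 2 lay close to A20ZF7 and the ratio of 1.11 (1.05 to 1.18) was smaller than the ratio of 1.19 between the mice. Gpr183 was at 269 in WT, 245 in mouse 1, 274 in mouse 2 and 301 in A20ZF7, a ratio of 1.12 (1.06 to 1.18) no larger than that between the mice. Itgb7 was level at 247 in WT, 246 in mouse 1, 245 in mouse 2 and 248 in A20ZF7. Itgb1 was level as well, at 53.5 in WT and 54.2 in A20ZF7, with the mice at 59.5 and 44.5. Neither beta chain followed the alpha chains that it pairs with.

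In a sum of this kind, fewer cells of a type and less RNA per cell cannot be told apart, and the class mix differed between genotypes. Th17-like barcodes were 1.43% of WT and 21.3% of A20ZF7 lymphocytes, ILC2-like barcodes 31.1% and 10.3%, Th1 or NKT-like barcodes 17.1% and 1.84%, and CD8 T-like barcodes 7.97% and 15.5%. With the named classes of both libraries weighted as in A20ZF7, the ratio was 0.960 for Itgae, 0.904 for S1pr1 and 0.965 for Gpr183, while Itga1 stayed low at 0.414 and Itga4 high at 1.39. This weighting leans on the 77 WT Th17-like barcodes, in which S1pr1 had 3 UMIs, all in mouse 1. With Th17-like barcodes left out of it, the ratio was 0.941 for Itgae, 1.04 for S1pr1 and 1.21 for Gpr183, so the values below 1 for S1pr1 and Gpr183 rested on that class. With the classes weighted as in WT, the ratios were 1.11 for Itgae, 1.30 for S1pr1 and 1.13 for Gpr183.

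**Figure D1:**
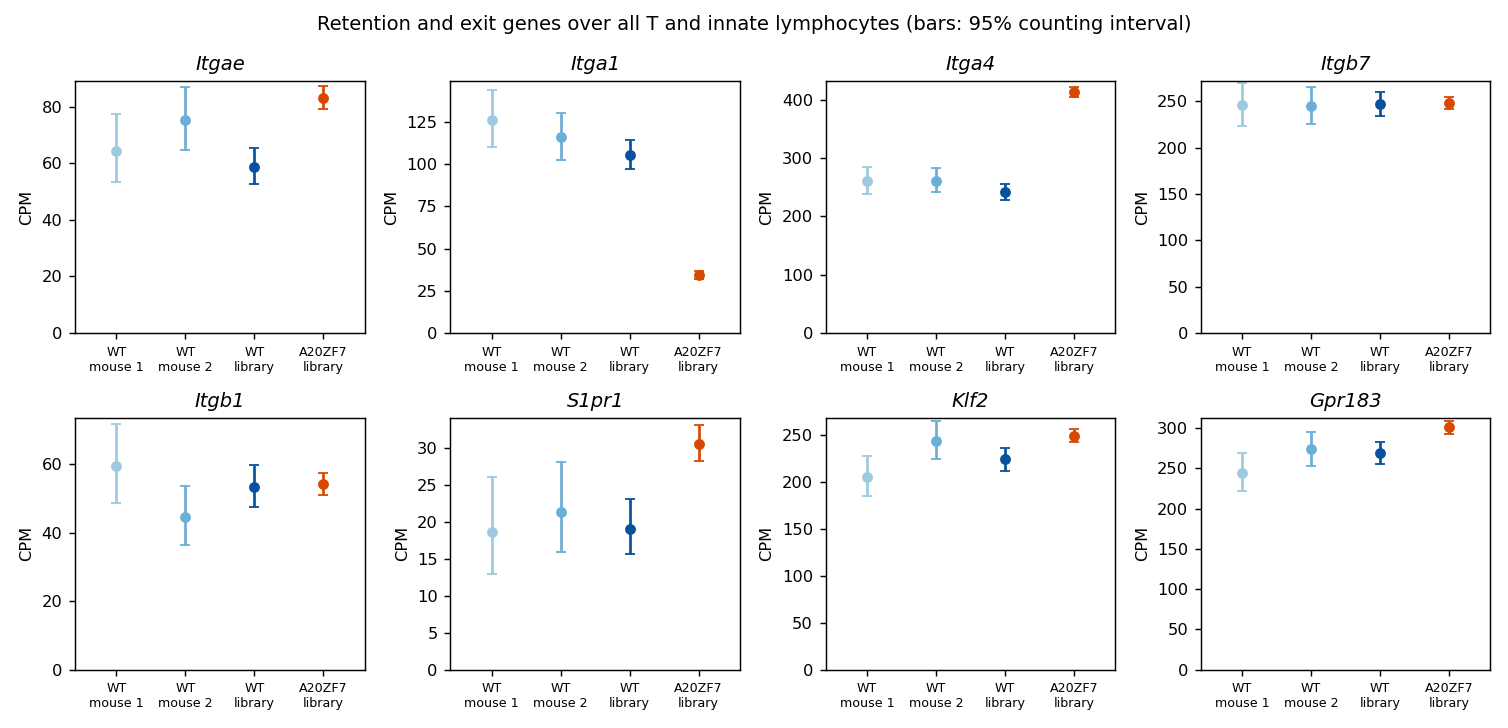
Level of each gene in CPM (vertical axis, from 0) over all T and innate lymphocyte barcodes in WT mouse 1, WT mouse 2, the WT library and the A20ZF7 library (horizontal axis), with bars for the 95% counting interval. Itga1 sits at 34.3 in A20ZF7 against 116 to 126 in the WT mice, and Itga4 at 414 against 261 in both.

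As a measure of how often such differences arose, a gene entered the comparison once the genotype with more of it had at least 50 CPM and 20 UMIs, and a 2-fold difference was counted. Over all lymphocytes 3503 genes met this minimum, of which 2.46% were at least 2-fold higher in A20ZF7 and 2.26% at least 2-fold lower, with a median ratio of 1.02. Of the 8 genes, 7 met it (S1pr1 was too low), and 1 of these, Itga1, was past 2-fold, on the lower side. Of 35 other genes of lymphocyte adhesion, migration and residence (the lymphocyte-side list), 21 met the minimum and 0 were past 2-fold in either direction, with a median ratio of 0.974. Among them, Cd69, which holds S1pr1 inside the cell, was at 578 in WT and 446 in A20ZF7, and Itgav, another integrin alpha chain, was at 169 and 304.

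Counted by class, no member that met the minimum was past 2-fold outside the CD8 T-like, γδ T-like and ILC1 or NK-like classes. Those classes are described with their genes. Without the minimum, 9 class ratios outside CD8 T-like barcodes were past 2-fold. Those of members under the minimum were S1pr1 and Itgb1 in Th17-like, S1pr1 in ILC3-like and Itgae, Itga1 and S1pr1 in ILC2-like barcodes. In Th1 or NKT-like barcodes 2.47% of genes were at least 2-fold higher in A20ZF7 and 2.15% at least 2-fold lower, and 0 of the 6 members that met the minimum were past it. In Th17-like barcodes the shares were 16.6% and 0.47% and 0 of 5 members were past it, and in Treg-like barcodes 11.1% and 0.68% and 0 of 6. In ILC2-like barcodes, with 3.59% and 2.76%, 0 of 5 members were past it, and Itgae, Itga1 and S1pr1 were under the minimum. From WT to A20ZF7, these went from 18.9 to 48.1, from 41.1 to 15.2 and from 4.87 to 12.2 CPM. In ILC3-like barcodes, with 3.62% and 1.94%, it was 0 of 7, and in dividing lymphocytes, with 4.52% and 1.19%, 0 of 5.

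Itgae (chr11:73090505-73147449 in GRCm38), the alpha chain of CD103, was highest in 3 WT classes that did not differ beyond their intervals: ILC1 or NK-like at 208 CPM (155 to 275), CD8 T-like at 198 (155 to 248) and Treg-like at 192 (117 to 296). The next WT classes were dividing lymphocytes at 103 and Th1 or NKT-like at 77.7, and the lowest were ILC2-like at 18.9 and γδ T-like at 7.25 (2 UMIs). In A20ZF7 the Treg-like class led alone, at 269 (245 to 294), and CD8 T-like barcodes were at 89.1 (77.8 to 102), among the other classes. Fibroblast clusters, which should lack Itgae, were at 11.4 in WT and 35.7 in A20ZF7.

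Set against that background, the low Itgae levels of innate classes were higher in A20ZF7 together with it. ILC2-like barcodes went from 18.9 to 48.1 (ratio 2.54, 1.73 to 3.83) and ILC3-like barcodes from 28.9 to 54.2 (ratio 1.88, 1.30 to 2.78), while the ratio was 3.13 (2.46 to 4.03) in fibroblast clusters and 9.43 (3.85 to 29.9) in plasma clusters. In γδ T-like barcodes the level was 7.25 in WT and 52.1 in A20ZF7, on 2 and 20 UMIs. Against mouse 2 alone the ratio was 1.70 in ILC2-like and 1.10 in ILC3-like barcodes. With free RNA taken off, the ratios were 2.49 and 1.77.

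Itga1 (chr13:114958079-115101964) is the alpha chain of the collagen-binding CD49a. In WT it was highest in CD8 T-like barcodes at 307 (254 to 369) and ILC1 or NK-like barcodes at 267 (205 to 341). These classes did not differ beyond their intervals. Th1 or NKT-like barcodes followed at 170 and ILC3-like barcodes at 113. The other WT classes lay between 14.8 in Th17-like and 47.1 in γδ T-like barcodes. Among them was the Treg-like class, one of the highest for Itgae, with Itga1 at 28.7 on 3 UMIs. In A20ZF7 no class was above 94.4, the level of ILC1 or NK-like barcodes, which rested on 7 UMIs.

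The lower Itga1 level in A20ZF7 was seen in 9 of 10 classes, the exception being γδ T-like barcodes at 47.1 and 59.9. The ratio was 0.258 (0.204 to 0.327) in CD8 T-like, 0.354 (0.137 to 0.772) in ILC1 or NK-like, 0.370 (0.242 to 0.557) in ILC2-like, 0.513 (0.407 to 0.647) in ILC3-like and 0.555 (0.356 to 0.837) in Th1 or NKT-like barcodes. In the other 5 classes the interval held 1. In these 5 classes with an interval below 1, the ratio was also below 1 against each WT mouse alone. Itga1 was lower in A20ZF7 in non-lymphoid cells that carry it too, with a ratio of 0.697 in smooth muscle clusters (388 to 270), 0.666 in endothelial clusters (369 to 246) and 0.728 in fibroblast clusters (126 to 91.9). This was not particular to Itga1. Klf2 was lower in smooth muscle (1153 to 726) and endothelial clusters (1934 to 1059), and Itgb1 in smooth muscle clusters (911 to 613). Itga4 was higher in smooth muscle clusters (233 to 333, thinned to 500 UMIs). The share of all genes was not computed in these clusters. Of the ILC1 or NK-like class, 5 members met the minimum and 1 of them, Itga1, was at least 2-fold lower in A20ZF7, against 11.8% of the 1481 genes tested there (2.03% were at least 2-fold higher). Itga1 met the minimum there only through WT, as A20ZF7 had 7 UMIs, so it could be counted only as lower.

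Itga4 (chr2:79255426-79333114), the alpha chain of the gut-homing α4β7, was highest in the Treg-like class of WT at 661 (514 to 836), above CD8 T-like barcodes at 361 (302 to 427), and lowest in γδ T-like barcodes at 61.6. In A20ZF7 the CD8 T-like class at 569 (540 to 599) and the Treg-like class at 529 (496 to 564) were level, and γδ T-like barcodes were again the lowest, at 240. Itga4 was higher in A20ZF7 in 9 of 10 classes. The exception was the Treg-like class, with a ratio of 0.801 (0.627 to 1.04).

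Among the lymphocyte classes the Itga4 difference was widest in γδ T-like barcodes, from 61.6 in WT (92.4 in mouse 1 and 65.9 in mouse 2) to 240 in A20ZF7, a ratio of 3.89 (2.30 to 6.96). There 6.0% of 3218 genes were at least 2-fold higher in A20ZF7 and 2.83% at least 2-fold lower. Of the 7 members that met the minimum 2 were higher (Itga4 and Itgae) and 0 lower. Itgae met it only through A20ZF7, at 52.1 CPM on 20 UMIs against 7.25 on 2 in WT. It could thus be counted only as higher. Itga4 in ILC3-like barcodes went from 160 to 282 (ratio 1.77, 1.51 to 2.07) and in ILC2-like barcodes from 283 to 373 (ratio 1.32, 1.18 to 1.47). These 2 classes each hold 2 clusters, of which a different one leads in each genotype. Within the ILC2-like cluster that held most A20ZF7 barcodes the ratio was 1.04 (0.874 to 1.26), and within the ILC3-like cluster that did so it was 1.13 (0.787 to 1.69), so the innate difference was not resolved there. Fibroblast clusters had Itga4 at 51.3 in WT and 164 in A20ZF7.

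Itgb7 (chr15:102215994-102233405), the beta chain shared by α4β7 and αEβ7, ran against the order of its partner Itgae in WT: ILC2-like barcodes were the highest at 341 (315 to 368) and CD8 T-like barcodes the lowest at 136 (101 to 179). In A20ZF7 the classes lay closer together, from 165 in Th1 or NKT-like to 292 in Th17-like barcodes. The ratio was 0.819 (0.733 to 0.915) in ILC2-like and 1.27 (1.10 to 1.48) in ILC3-like barcodes. By cluster, the ILC2-like ratio was 1.26 (1.01 to 1.59) in the cluster that led in A20ZF7 and 0.918 (0.556 to 1.43) in the one that led in WT, so neither cluster showed the lower level of the class with an interval below 1. Across the 20 sums of class and genotype, Itgb7 had a Pearson correlation of -0.81 with Itga1 and -0.52 with Itgae on the log2 scale, given as a description since the sums of 1 library share its depth and background.

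Itgb1 (chr8:128685654-128733579), the beta chain of α1β1 and of many other integrins, was low and even over the lymphocyte classes, from 38.3 in naive or central memory T-like to 61.6 in γδ T-like barcodes of WT and from 28.8 in Th17-like to 79.1 in CD8 T-like barcodes of A20ZF7. Fibroblast clusters had it at 468 and 396, far above every lymphocyte class, and the low-UMI barcodes that hold free RNA had it at 313 and 243. After free RNA was taken off, the lymphocyte level was 32.8 in WT and 4.34 in A20ZF7. In A20ZF7 Th17-like barcodes, with an estimated free RNA share of 27.1%, the part to take off exceeded the observed 28.8. The estimate can thus take off too much, and 4.34 may be too low. No genotype ratio of Itgb1 in a named class had an interval that left out 1.

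S1pr1 (chr3:115710433-115715055), the exit receptor, was concentrated in naive or central memory T-like barcodes, at 184 (136 to 244) in WT and 93.2 (78.7 to 110) in A20ZF7. In WT the next class, Th17-like, was at 44.3 on 3 UMIs, and the other T and innate classes lay between 0 UMIs in γδ T-like (3 UMIs, the limit that a count of 0 allows, would be 10.9 CPM) and 28.7 in Treg-like barcodes. In A20ZF7 the CD8 T-like class came next, at 53.1 (44.5 to 63.0), then ILC1 or NK-like at 40.5 on 3 UMIs. ILC2-like barcodes were at 4.87 and 12.2, near the 4.002 and 11.74 of fibroblast clusters. ILC3-like barcodes were at 9.63 (4.98 to 16.8) in WT, an interval that meets that of fibroblasts, and at 20.1 (15.2 to 26.0) in A20ZF7, above fibroblasts there. That A20ZF7 interval met those of plasma (14.5, 9.76 to 20.6) and macrophage clusters (16.8, 11.4 to 23.8), so the level was not resolved from background. Endothelial clusters, which use S1pr1 themselves, had it at 349 and 178.

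Klf2 (chr8:72319062-72321654), a factor that switches on S1pr1, was also highest in naive or central memory T-like barcodes of WT, at 533 (448 to 629), and lowest in Th17-like barcodes, at 88.6 on 6 UMIs. In A20ZF7 the CD8 T-like class at 397 (372 to 422) and the naive or central memory T-like class at 365 (336 to 396) led together, and Th17-like barcodes were again lowest, at 167. The remaining classes lay between 187 and 250 in WT and between 196 and 270 in A20ZF7. Klf2 is made by many other cells, and fibroblast clusters had 342 and 314 and endothelial clusters 1934 and 1059.

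Gpr183 (chr14:121952331-121965193), the oxysterol receptor, led in classes with a type 3 program: Th17-like at 620 (447 to 839), γδ T-like at 613 (524 to 712) and ILC3-like at 434 (398 to 472) in WT. In A20ZF7 ILC3-like at 401 (378 to 425) and γδ T-like at 401 (340 to 469) were level, and Th17-like barcodes were at 312 (293 to 331). The Th17-like ratio was 0.503 (0.370 to 0.702), with WT mouse 1 at 714 and mouse 2 at 801 on 14 and 20 UMIs and the 27 WT barcodes without a hashtag call at 346, close to A20ZF7. The γδ T-like ratio was 0.654 (0.523 to 0.819). With barcodes of at least 1000 UMIs alone it was 1.10, on the other side of 1.

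At the low end, Gpr183 was higher in A20ZF7. ILC2-like barcodes went from 158 to 264 (ratio 1.67, 1.45 to 1.93), Treg-like barcodes from 163 to 286 (ratio 1.76, 1.09 to 3.04) and ILC1 or NK-like barcodes from 146 to 283 (ratio 1.94, 1.07 to 3.43). Within the ILC2-like cluster that led in A20ZF7, however, the level was 292 in WT and 266 in A20ZF7 (ratio 0.911, 0.747 to 1.12), so the higher level of the class was not seen within it. Fibroblast clusters were at 49.8 and 122.

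**Figure D2:**
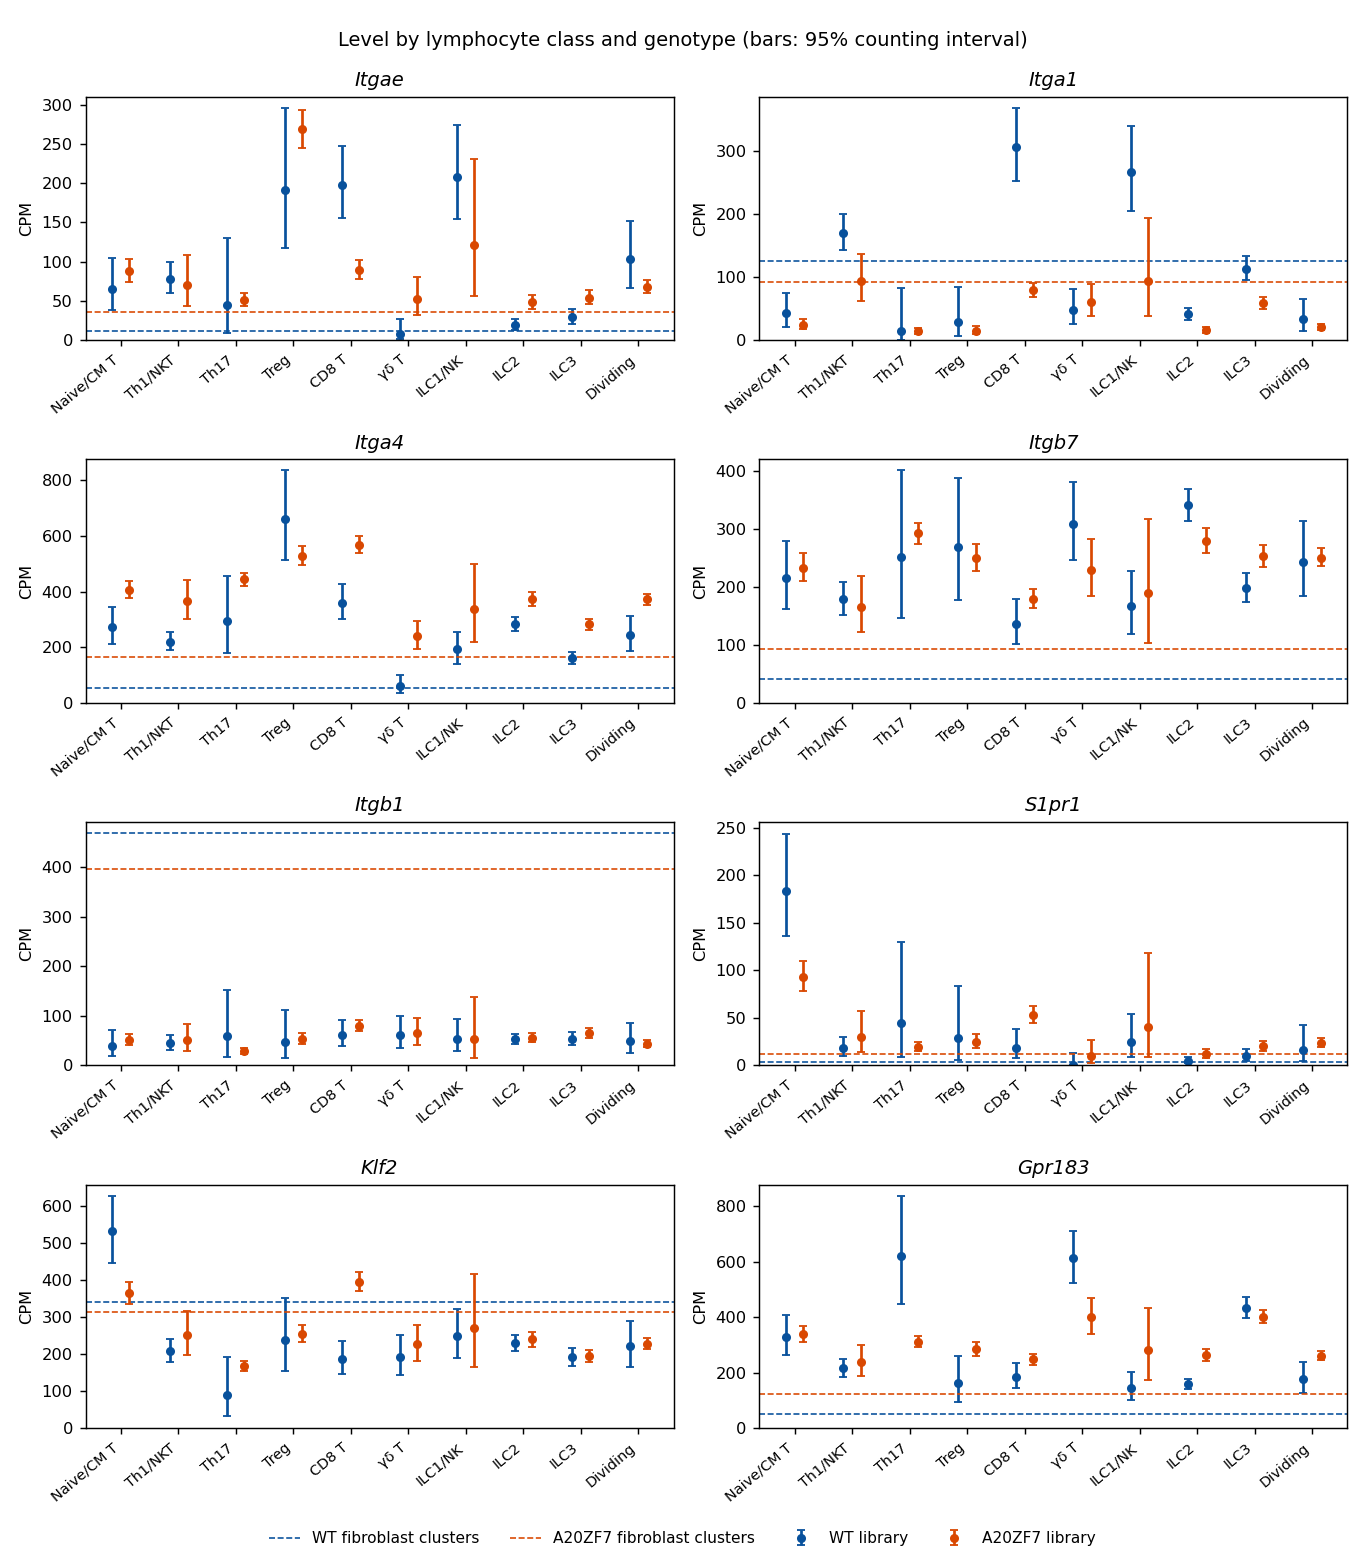
Level of each gene in CPM (vertical axis, from 0) in the 10 named lymphocyte classes (horizontal axis) for the WT and A20ZF7 libraries, with bars for the 95% counting interval and dashed lines for fibroblast clusters of the same library. S1pr1 stands out in naive or central memory T-like barcodes at 184 in WT, and Itga1 in CD8 T-like barcodes at 307 in WT against 79.1 in A20ZF7.

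**Figure D3:**
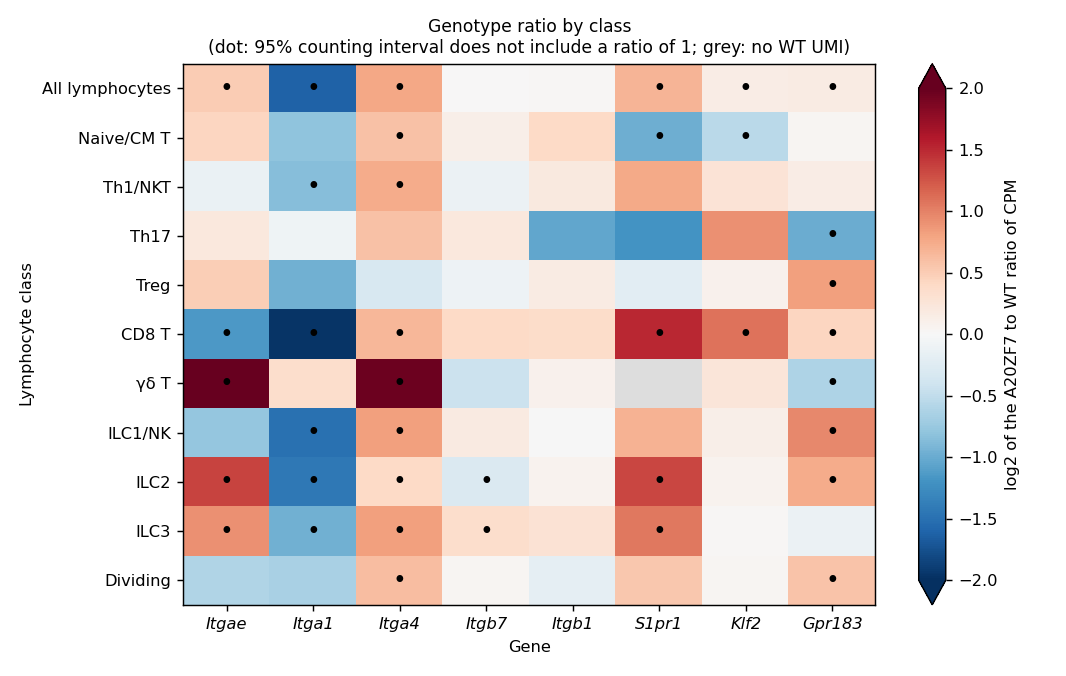
Log2 of the A20ZF7 to WT ratio of CPM for each gene (horizontal axis) in all lymphocytes and in each class (vertical axis), with a dot where the 95% counting interval leaves out a ratio of 1 and grey where WT had no UMI. Itga1 is lower in 9 of 10 classes and Itga4 higher in 9 of 10. Itgae, Itgb7, S1pr1, Klf2 and Gpr183 differ in direction between classes.

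Among members that met the minimum, the CD8 T-like class was where the most were past 2-fold. It held 428 WT and 3499 A20ZF7 barcodes, and both retention integrin alpha chains were lower there and both exit genes higher in A20ZF7. Itgae was at 226 in WT mouse 1, 160 in WT mouse 2, 198 in the WT library and 89.1 in A20ZF7, a ratio of 0.451 (0.345 to 0.595). Itga1 was at 339 in mouse 1, 282 in mouse 2, 307 in WT and 79.1 in A20ZF7. For both genes each mouse was well above A20ZF7.

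Klf2 in the same barcodes was at 161 in mouse 1, 182 in mouse 2, 187 in WT and 397 in A20ZF7, a ratio of 2.12 (1.67 to 2.75). S1pr1 was at 11.9 in mouse 1, 27.6 in mouse 2, 18.7 in WT and 53.1 in A20ZF7, a ratio of 2.84 (1.34 to 7.21) that rests on 7 WT UMIs and 133 A20ZF7 UMIs. Both mice were below A20ZF7 for both genes. The 30 WT barcodes without a hashtag call had Klf2 at 398 (191 to 731) on 10 UMIs, level with A20ZF7. Itga4 was higher as well, from 361 to 569 (ratio 1.58, 1.32 to 1.90), and Gpr183 from 184 to 249 (ratio 1.35, 1.05 to 1.76). Itgb7 (136 and 179) and Itgb1 (61.4 and 79.1) had intervals that held 1.

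Of the 3434 genes tested in CD8 T-like barcodes, 4.54% were at least 2-fold higher in A20ZF7 and 1.6% at least 2-fold lower, with a median ratio of 1.03. All 8 members met the minimum there, and 2 were past 2-fold on the higher side (S1pr1 and Klf2) and 2 on the lower (Itgae and Itga1). S1pr1 met the minimum only through A20ZF7, at 53.1 CPM against 18.7 in WT, so it could be counted only as higher. Of the lymphocyte-side list, 22 of 35 met it, 3 were higher and 1 lower, with a median ratio of 0.995. The 3 were Itgav (64.1 to 181), Itgb3 (21.4 to 63.9), its beta chain partner, and Cd44 (112.1 to 230.5), the hyaluronan receptor of activated T cells, and the 1 was Itgax (77.4 to 37.6), an integrin alpha chain of myeloid cells and activated CD8 T cells. Itgb3 met the minimum only through A20ZF7 and could be counted only as higher. Itgax met it only through WT and could be counted only as lower.

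**Figure D4:**
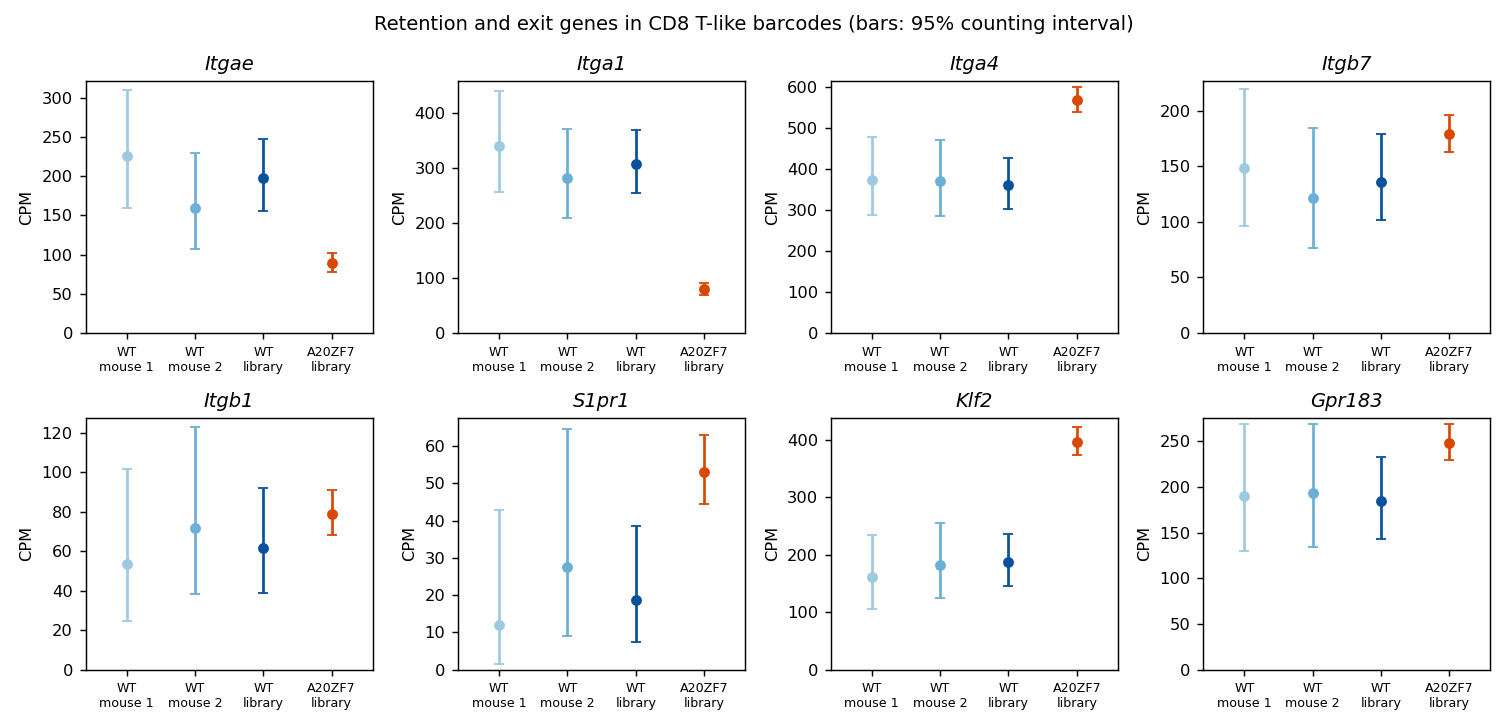
Level of each gene in CPM (vertical axis, from 0) in CD8 T-like barcodes of WT mouse 1, WT mouse 2, the WT library and the A20ZF7 library (horizontal axis), with bars for the 95% counting interval. Itgae and Itga1 are lower in A20ZF7 than in either WT mouse, and Klf2 and S1pr1 higher.

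Markers of the CD8 T-like class differed in part between genotypes. Of the CD8 markers, Cd8a was at 510 in WT and 275 in A20ZF7, Cd8b1 at 441 and 275 and Gzma at 3650 and 2165. Ccl5 was at 17670 and 17540, Gzmk at 208 and 204 and Nkg7 at 1725 and 1546. Gzmb was at 697 and 776 and Eomes at 117.5 and 224.1. Il17a was at 8.01 and 634 and Cd4 at 48.1 and 113. The part of free RNA in these values, estimated at 8.17% of UMIs in WT and 22.55% in A20ZF7, was not tested. Among barcodes with a UMI of Cd8a or Cd8b1 (218 and 1023), a restriction chosen after the data were seen, Itgae was at 213.7 and 125.3 (ratio 0.586, 0.405 to 0.862), Itga1 at 336 and 108 (ratio 0.321, 0.230 to 0.449) and Klf2 at 178 and 420 (ratio 2.36, 1.66 to 3.44). The S1pr1 ratio there was 2.34, with an interval from 0.842 to 9.02 on 4 WT UMIs. The Itgae ratio was 0.739 with barcodes of at least 1000 UMIs and 0.817 at the coarser clustering resolution of 0.4, over 1.5 times its main value, and was below 1 in both. With the same alternatives Klf2 was at a ratio of 1.48 and 1.46 and S1pr1 at 1.89 and 1.35, above 1 but under 2-fold, and without cell cycle regression they were at 1.59 and 1.79. Itga1 was past 2-fold in each of these, at 0.165 with barcodes of at least 1000 UMIs. Against mouse 1 and mouse 2 alone the S1pr1 ratio was 4.47 and 1.93.

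The share of CD8 T-like barcodes with a UMI gave the same order when each barcode was thinned to 500 UMIs, which left out 1047 A20ZF7 barcodes below that depth. Itgae was found in 9.35% of WT and 3.71% of A20ZF7 barcodes (13.8% and 5.66% before thinning), beside 0 of 402 (which allows up to 0.913%) and 1.61% of plasma barcodes. Itga1 was found in 13.3% and 4.28% (23.4% and 5.26% before thinning), beside 0.995% and 1.11% of plasma barcodes. Both shares of both integrin genes were thus above those of plasma cells. For Itgae in A20ZF7 this did not hold for every other cell type, since epithelial barcodes were at 3.75% (1.81 to 6.78) and endothelial barcodes at 2.52% (1.80 to 3.44), so the A20ZF7 share was not resolved from the highest of these. In WT they were at 0.341% and 1.67% (0.722 to 3.26), below the CD8 T-like share. S1pr1 was found in 0.701% (0.145 to 2.04) and 2.325% (1.765 to 3.001) of barcodes, or 1.64% and 3.57% before thinning, beside 0.249% and 0.804% of plasma barcodes, so the WT share was not resolved from background at this depth. Klf2 was found in 5.61% and 16.4% (10.1% and 20.6% before thinning), beside 6.97% and 9.95% of plasma barcodes, so only the A20ZF7 share stood above it. The median depth was 795.5 and 614 UMIs in CD8 T-like barcodes and 3343 and 1775 UMIs in plasma barcodes.

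In naive or central memory T-like barcodes (295 in WT and 2455 in A20ZF7) the exit genes went the other way. S1pr1 was at 199 in WT mouse 1, 216 in WT mouse 2, 184 in WT and 93.2 in A20ZF7, a ratio of 0.506 (0.363 to 0.717), or 0.231 with barcodes of at least 1000 UMIs. Klf2 was at 340 in mouse 1, 520 in mouse 2, 533 in WT and 365 in A20ZF7, a ratio of 0.685 (0.568 to 0.831) that became 1.08 against mouse 1 alone. S1pr1 thus separated both mice from A20ZF7 and Klf2 did not. There 5.23% of 2886 genes were at least 2-fold higher in A20ZF7 and 1.07% at least 2-fold lower, with a median ratio of 1.12, and of the 7 members that met the minimum 0 were past 2-fold either way. Of the 23 list genes that met it, 4 were higher (Itgav, Itgb3, Prdm1 and Ahr) and 2 lower, among them Ccr7 (360 to 138), a receptor that guides cells into lymph nodes.

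In the naive or central memory T-like class, Lef1, a factor of naive T cells, was at 502 in WT and 101 in A20ZF7. Whether the class held different cells in the 2 genotypes was not tested. At the finer clustering resolution of 1.2 it split into a cluster with 125 WT and 132 A20ZF7 barcodes and one with 169 and 2290. S1pr1 was at 325 and 207 in the first (ratio 0.636, 0.356 to 1.10) and at 65.8 and 86.8 in the other (ratio 1.32, 0.673 to 2.95). Klf2 was at 967 and 531 in the first (ratio 0.550, 0.391 to 0.764) and at 161 and 349 in the other (ratio 2.17, 1.42 to 3.50). The lower S1pr1 of the whole class was thus not resolved in either cluster at this depth. Against the WT library, Klf2 differed in direction between them. In the first, however, WT mouse 1 had Klf2 at 592 (383 to 874), not resolved from A20ZF7, and mouse 2 at 1028 (741 to 1389).

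Within barcodes, S1pr1 and Klf2 were found together. After thinning to 500 UMIs, WT lymphocytes with a S1pr1 UMI (47 barcodes) had Klf2 at 809 CPM against 200.5 in those without, a ratio of 4.03 (2.41 to 6.36), and A20ZF7 lymphocytes with a S1pr1 UMI (271 barcodes) had 627 against 244, a ratio of 2.58 (2.05 to 3.20). The same was seen inside the A20ZF7 CD8 T-like class, at 912 against 403 (ratio 2.26, 1.46 to 3.36, 57 barcodes), and inside the WT naive or central memory T-like class, at 1083 against 480 (ratio 2.26, 1.14 to 4.14, 24 barcodes). The 57 A20ZF7 CD8 T-like barcodes with S1pr1 held 0 Itga1 UMIs, but the interval of that ratio reached 1.43. Itgae with Itgb7, Itga4 with Itgb7, and Klf2 with Itga1 or Itgae had intervals that held 1 over all lymphocytes of either genotype.

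The protein readout could be used for WT only, because the antibody count files deposited for the 2 genotypes were identical. They belonged to the WT cells, with a median of 1854 antibody UMIs at WT barcodes and 42 at A20ZF7 barcodes. Counts of the integrin antibodies on lymphocytes were close to those on cells that should not carry the protein. CD103 had a median of 6 UMIs on lymphocytes and 6 on fibroblasts, integrin7 18 and 18, and CD49d 4 and 4. The IgG1, IgG2a and IgG2b control antibodies had medians of 5, 5 and 2 on lymphocytes. CD49a had a median of 19 on lymphocytes, 24 on fibroblasts, 56 on endothelial and 63 on smooth muscle barcodes, and Itga1 RNA in the 3 non-lymphoid groups had the same order (126, 369 and 388 CPM).

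Some signal of CD103 followed Itgae. Per 10000 antibody UMIs, CD103 ran from 33.0 in γδ T-like to 38.6 in Treg-like barcodes, with 33.6 in fibroblasts, and over the 10 classes its order followed that of Itgae RNA with a Spearman rho of 0.95, or 0.51 when medians per barcode were used. Among WT lymphocytes with a hashtag call, barcodes with an Itgae UMI had a median of 8 CD103 UMIs and those without had 7. Of the same lymphocytes, the 973 with the most CD103 UMIs had Itgae RNA at 104 (85.4 to 125). The level was 61.2, 53.4 and 64.0 in 3 groups of the same size or 1 larger, from the lowest counts up. Itga1, Itga4 and Itgb7 RNA showed no such step over like groups by their antibodies, for instance 134, 106, 121 and 121 for Itga1 by CD49a. Per 10000 antibody UMIs, the rho with RNA over the 10 classes was 0.353 for CD49a, -0.285 for CD49d and -0.48 for integrin7. On that scale integrin7 was at 115.2 in ILC1 or NK-like barcodes (114.5 in mouse 1, 117.7 in mouse 2). It was at 111.9 in CD8 T-like barcodes (111.5 and 112.1) and 103.4 in ILC3-like barcodes (105.4 and 101.2). The integrin7 order thus did not follow Itgb7 RNA, which was lowest in CD8 T-like barcodes. No interval was computed for these levels.

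**Figure D5:**
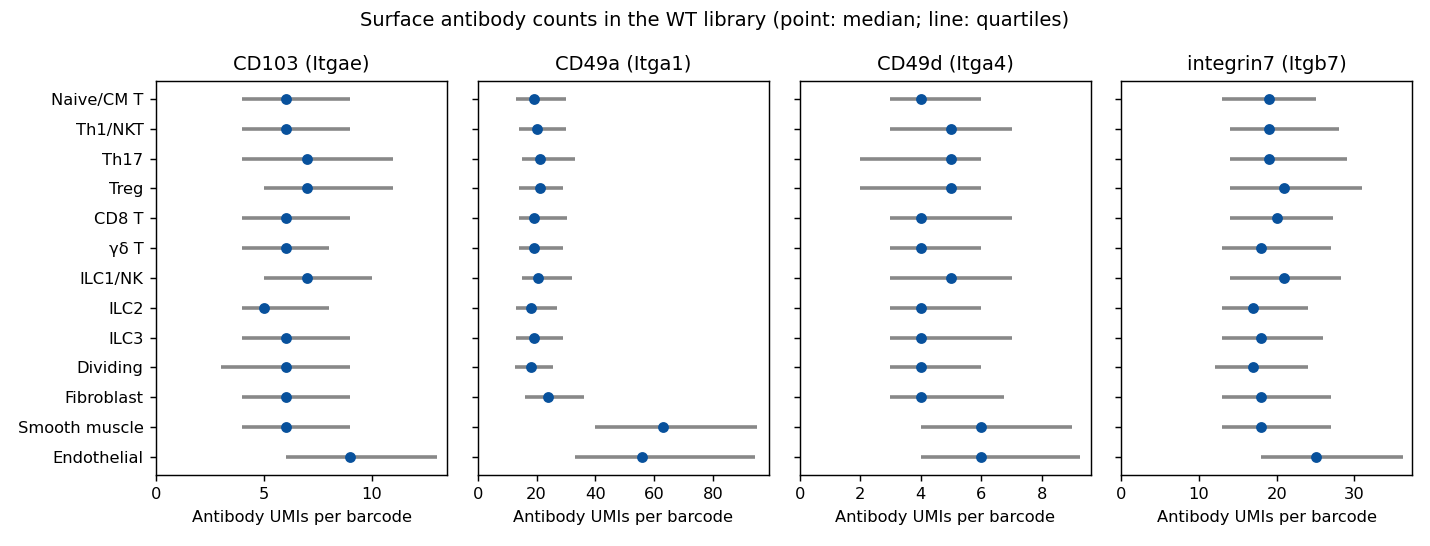
Antibody UMIs per barcode (horizontal axis, from 0) for the 4 integrin antibodies in the WT library, by lymphocyte class and in fibroblast, smooth muscle and endothelial clusters (vertical axis), with points for medians and lines for quartiles. CD49a is highest on smooth muscle (median 63) and endothelial (56) barcodes, and CD103, CD49d and integrin7 on lymphocytes are level with fibroblasts.

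The ligand side of the same pathways was read in the other cells of the libraries. Of 19 genes on this list, the genotype ratio had an interval below 1 for 11 and above 1 for 2 in fibroblast clusters, and below 1 for 5 and above 1 for 2 in endothelial clusters. The share of all genes with such intervals was not computed in these clusters, so the counts do not set the list apart. The fibroblast clusters also differed in make-up, as the largest held 575 WT and 7720 A20ZF7 cells and another 3145 and 316. Tgfb1, a cytokine that induces Itgae, was among the higher ones, at 34.5 CPM in WT and 65.4 in A20ZF7 fibroblast clusters (ratio 1.90, 1.64 to 2.20), with a ratio of 2.17 (1.63 to 2.91) in smooth muscle, 1.76 (1.29 to 2.44) in endothelial and 2.18 (1.504 to 3.22) in plasma clusters. Epithelial clusters went from 7.38 to 72.0 (ratio 9.76, 5.13 to 19.2). Macrophage (ratio 1.17, 0.862 to 1.62) and dendritic clusters (ratio 0.861, 0.527 to 1.44) had intervals that held 1. The part of free RNA in the Tgfb1 ratios was not tested. In endothelial clusters, Madcam1, the partner of α4β7, was at 545 CPM in WT and 498 in A20ZF7, and Vcam1, the partner of α4β1, at 195 and 186, and both ratios had intervals that held 1. Spns2, which exports sphingosine 1-phosphate, was at 133 and 70.3 there, a ratio of 0.528 (0.404 to 0.694). In fibroblast clusters, Fn1, a ligand of α4β1, was at 1561 and 968 (ratio 0.620, 0.605 to 0.636), Col4a1, a ligand of α1β1, at 637 and 527, Cyp7b1, which makes the oxysterol ligand of Gpr183, at 143 and 141, and Ch25h, which acts before it, at 8.75 and 5.31. Cdh1, the E-cadherin that CD103 binds, was at 207 in WT and 74.5 in A20ZF7 epithelial clusters, a comparison that rests on 30 A20ZF7 UMIs. Epithelial barcodes also differed in depth, with a median of 3767 UMIs in WT and 906 in A20ZF7. Of the 19 list genes, 7 had an interval above 1 there and 5 below 1. The part of depth and cell make-up in the epithelial Cdh1 and Tgfb1 ratios was not tested.

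By likeness of level over the 20 sums of class and genotype (log2 of CPM plus 20, 2916 genes), each member had its own neighbours. The genes most like S1pr1 were Ccr7 (Pearson r 0.85), Slamf6 (0.84) and Aff3 (0.81), and those most like Klf2 were Chd1 (0.72), Lef1 (0.71) and Ikzf1 (0.66), while S1pr1 and Klf2 had r 0.59 with each other. Itga1 was closest to Ctsw (0.91), Osgin1 (0.87) and Slamf7 (0.86), and Itgae to Prkch (0.83), Rnf149 (0.82) and Pmepa1 (0.81). Itga4 was closest to Otulin (0.86), B3gnt2 (0.84) and Pmaip1 (0.83), and Itgb7 to Slc25a3, Cyb5a and Ero1l, with r from 0.78 to 0.80. Gpr183 was closest to Hs2st1 (0.90), Il23r (0.89) and Il1r1 (0.88), and Itgb1 to Pik3ap1 (0.56), Eomes (0.53) and Airn (0.52). Sums of 1 library share its depth and free RNA, and no p-value goes with these coefficients.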

How the data were processed

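Single-cell 5′ gene expression of lamina propria cells was deposited as unfiltered UMI counts per gene and barcode, which the authors made with Cell Ranger 7.1 on mm10 (GRCm38) per the submitters' processing notes, followed by R 4.3.3 and Seurat 4.3. The headers of the gene expression files name a later Cell Ranger release, and the gene lists of the genotypes differ, so the reference of each library is not certain. The authors also deposited antibody counts, identical for both genotypes and used for WT only. Cells were barcodes above a UMI threshold (676 in WT and 395 in A20ZF7) with 200 to 2500 genes and at most 15% mitochondrial UMIs. WT barcodes with both hashtags (1991) were removed as doublets, and A20ZF7 doublets could not be called by hashtag. Cells were clustered in Seurat 5.3.0 (2000 variable genes without the members, 30 components, resolution 0.8), lymphocyte clusters were clustered again with cell cycle scores regressed, and classes were named from marker lists that held no member. The limits for choosing lymphocyte clusters and for naming classes were set after the clusters were seen. Counts were summed per library and class as CPM over shared identifiers. Levels carry exact Poisson intervals and ratios exact conditional intervals (scipy 1.17.1), which cover counting error only. The scripts were tested on simulated data. The named genes were the 8 members, the lymphocyte-side and ligand-side lists, and for each member the 3 genes with the most similar level. The values of 1 lymphocyte-side gene are not reported here, although it is in the counts. The members and lists were chosen with earlier results of these data known. Alternatives were the UMI minimum, clustering resolution, cell cycle regression, a marker gate without clustering, thinning, doublet scores from Scrublet (scanpy 1.11.5), free RNA taken off, and each WT mouse alone. The class mix, removal of WT barcodes without a hashtag call, removal of shared barcodes and the Cd8a or Cd8b1 restriction were chosen after seeing the data. Coordinates are from RefSeq for GRCm38.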

Additional observations from a re-analysis of the deposited data

Results flagged for a closer look

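In 4 genes the ratio of A20ZF7 to WT lay on opposite sides of 1 in 2 lymphocyte classes, with both counting intervals leaving out 1 and both WT mice on the same side. In each case the difference was not tested, since there was 1 library per genotype. The share of all genes that would meet the same rule was not computed, so the count does not set the members apart.

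Itgae, the CD103 alpha chain, had a ratio of 2.54 in ILC2-like and 0.451 in CD8 T-like barcodes. The ILC2-like levels were 18.9 and 48.1 CPM, beside 11.4 and 35.7 in fibroblast clusters. S1pr1 had a ratio of 2.84 in CD8 T-like barcodes, on 7 WT UMIs, and 0.506 in naive or central memory T-like barcodes, where Lef1 was at 502 in WT and 101 in A20ZF7. Itgb7 had a ratio of 1.27 in ILC3-like and 0.819 in ILC2-like barcodes, where a different cluster led each class in each genotype. Gpr183 had a ratio of 1.94 in ILC1 or NK-like barcodes, on 35 WT and 21 A20ZF7 UMIs, and 0.654 in γδ T-like barcodes, which was 1.10 with barcodes of at least 1000 UMIs.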

How the results depend on the processing

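No paired analysis was possible because each genotype had 1 library, and the 2 animals pooled in A20ZF7 were not told apart here. Over all lymphocytes the Itga1 ratio was below 1 and past 2-fold in all 16 alternatives, and the ratios of Itga4 and Klf2 stayed above 1 in all 16. Outside their counting interval (or 1 for the direction) were these. With each WT mouse alone, Itga1 was 0.272 and Itga4 1.59 and 1.58 (mouse 1, mouse 2), Klf2 1.21 and 1.02, Gpr183 1.23 (mouse 1), and Itgae 1.10 and Itgb1 1.22 (mouse 2). Without WT barcodes lacking a hashtag call, Itgae was 1.18, Itga1 0.286 and Itga4 1.59. With classes weighted as in WT, Itgae was 1.11, Itga1 0.456 and Itga4 1.504. Weighted as in A20ZF7, Itgae was 0.960, Itga1 0.414, Itga4 1.39, S1pr1 0.904 and Gpr183 0.965, and the same without Th17-like barcodes, a choice made after seeing the data, gave 0.941, 0.397, 1.36, 1.04 and 1.21. At 1000 UMIs or more, Itga1 was 0.291, Itga4 1.56 and Klf2 1.03, and the marker gate gave Itga1 0.382. With free RNA taken off, Itga1 was 0.211, Itgb7 1.09 and Itgb1 0.132, and thinning gave Klf2 1.21. In CD8 T-like barcodes, 1000 UMIs or more gave Itgae 0.739, Itga1 0.165 and Klf2 1.48, resolution 0.4 gave Itgae 0.817, Itga1 0.334 and Klf2 1.46, no cell cycle regression gave Klf2 1.59, thinning Klf2 2.78, and free RNA taken off Itgb1 0.804. The cause of these shifts was not tested. The class weights change the class mix and also leave out the unnamed lymphocyte clusters (68 WT and 818 A20ZF7 barcodes). In the other classes 763 of 805 alternative ratios stayed in the interval, and 3 of 9 ratios past 2-fold were so in every setting. Of those 9, 1 crossed 1, Itgb1 in Th17-like barcodes, 1.28 without WT barcodes lacking a call against 0.487, on 4 WT UMIs. Of 26 ratios with an interval that left out 1, 2 crossed it, Gpr183 in γδ T-like barcodes (1.10 at 1000 UMIs or more) and Klf2 in naive or central memory T-like barcodes (1.08 against mouse 1). For 5 ratios no value was left, since the free RNA to take off was at least the level itself, so that estimate can be too high. Cell cycle regression did not enter the sum over all lymphocytes. The minimum for counting genes past 2-fold moved the share of all genes but no member's value. Depth limits S1pr1 in most classes and every WT value in Th17-like barcodes (77 barcodes).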
